A study of Mus musculus with 3 samples.

Results

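The genes described here are 10 that carry or steer the renal handling of phosphate and vitamin D: Kl (Klotho), its receptor partner Fgfr1, the phosphate carriers Slc34a1, Slc34a3, Slc20a1 and Slc20a2, the scaffold Pdzk1, the vitamin D enzymes Cyp27b1 and Cyp24a1, and the vitamin D receptor Vdr. They were taken by symbol from the 33696 genes of the deposited feature lists, and all 10 were found. They were read in 3 single-cell libraries from kidneys of male mice, 1 library per group: old D+Q (20 months, given D+Q, a senolytic treatment per the study title), old vehicle (20 months, labelled control, with vehicle named in the design text) and young (3 to 4 months, labelled control, with no vehicle named). The labels used here do not tell the strain, the dose or how many animals a library holds. With 1 library per group no test between groups was possible, so each level below is in CPM (a gene's counts scaled by the class total) with its exact 95% Poisson interval, and each log2 ratio has an exact 95% binomial interval. These intervals cover counting error only and say nothing of the spread between animals.

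Klotho is a membrane protein of the tubule that joins an FGF receptor to form the receptor for FGF23, a bone hormone. FGF23 lowers phosphate uptake by the proximal tubule and lowers the making of active vitamin D. Cyp27b1 makes the active hormone, Cyp24a1 breaks it down, and Vdr carries its signal into the nucleus, so the proximal tubule holds both a phosphate uptake site and a vitamin D control site. Klotho is best known from the distal convoluted tubule and is also made in the proximal tubule.

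Because the members differ in where along the nephron they are read, the 250 bases upstream of the annotated start are shown for 4 of them: Kl, read in distal and proximal tubule, Slc34a1, read across the proximal tubule, and Slc34a3 and Cyp27b1, read mainly in its first segment. The sequences are from RefSeq on GRCm38.p6, written 5′ to 3′ on the gene's strand. Capitals mark matches on either strand to GTTAAT, a hexamer of the HNF1 type, or to a nuclear receptor hexamer, which was searched as AGGTCA, in the form with a changed middle as AGTTCA, in the form with a changed first base as GGGTCA, and with both changes as GGTTCA.
Kl, chr5:150952357-150952606, + strand: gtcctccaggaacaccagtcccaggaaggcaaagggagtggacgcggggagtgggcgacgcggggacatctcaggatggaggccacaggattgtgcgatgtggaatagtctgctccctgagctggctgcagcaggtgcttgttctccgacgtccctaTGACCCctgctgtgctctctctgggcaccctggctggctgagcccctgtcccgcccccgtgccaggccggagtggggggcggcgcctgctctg
Slc34a1, chr13:55399398-55399647, + strand: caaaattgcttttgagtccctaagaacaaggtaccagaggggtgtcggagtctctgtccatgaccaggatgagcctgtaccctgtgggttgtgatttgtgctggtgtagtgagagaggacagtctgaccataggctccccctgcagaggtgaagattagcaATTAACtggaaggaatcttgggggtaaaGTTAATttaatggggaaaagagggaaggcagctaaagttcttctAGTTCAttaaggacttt
Slc34a3, chr2:25234235-25234484, - strand: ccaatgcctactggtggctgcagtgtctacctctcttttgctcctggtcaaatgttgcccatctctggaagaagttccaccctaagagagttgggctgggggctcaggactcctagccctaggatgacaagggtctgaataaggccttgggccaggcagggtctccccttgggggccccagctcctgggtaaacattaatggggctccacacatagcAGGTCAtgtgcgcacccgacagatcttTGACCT
Cyp27b1, chr10:127047996-127048245, + strand: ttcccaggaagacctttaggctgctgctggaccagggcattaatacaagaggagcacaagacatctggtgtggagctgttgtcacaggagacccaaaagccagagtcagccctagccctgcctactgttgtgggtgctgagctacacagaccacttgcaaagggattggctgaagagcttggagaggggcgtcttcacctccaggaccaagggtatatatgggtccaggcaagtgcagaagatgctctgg
An upstream sequence was found for 7 of the 10 members. Slc34a1 held 2 matches to GTTAAT, at -89 and -61 from the start, and 1 to AGTTCA at -17. Slc34a3 held 2 matches to AGGTCA, at -33 and -6, Kl held 1 match to GGGTCA at -93, and Cyp27b1 held 0 of these hexamers. Among 32851 mouse promoters of this length, 6.43% held GTTAAT, 14.0% AGGTCA, 11.8% AGTTCA, 11.6% GGGTCA, 8.85% GGTTCA and 38.6% at least 1 of the 4 nuclear receptor hexamers. The matches shown do not overlap each other, and a match describes the letters and not a bound site.

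The libraries held 8037 old D+Q, 6027 old vehicle and 8615 young barcodes, with median depths of 2299, 1883 and 2391 counts. After filtering, 7416 old D+Q, 5709 old vehicle and 7694 young cells remained. Barcode sequences shared between pairs of libraries numbered 28 to 38. Cells were gated on marker genes that include none of the members, which gave 5822 old D+Q, 4694 old vehicle and 5757 young proximal tubule cells, divided into S1 (the first segment), S3 (the last) and an intermediate set. Transcripts of the proximal tubule were counted in every class. In endothelial cells, which should lack the transporter, Slc34a1 stood at 2773 CPM in old D+Q, 3951 CPM in old vehicle and 3179 CPM in young, or 53.2%, 73.7% and 62.7% of its proximal tubule level. The old vehicle library had the highest such share of the 3, and levels outside a gene's own segment are set against it below.

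Klotho (gene Kl, ENSMUSG00000058488) in the whole library stood at 282 CPM in old D+Q, 268 CPM in old vehicle and 280.0 CPM in young cells. In proximal tubule cells it stood at 284 CPM in old D+Q, 263 CPM in old vehicle and 277 CPM in young, from 4136, 2672 and 4176 counts. The 3 libraries thus lay close together, and the log2 ratio of old vehicle to young was -0.07 (-0.14 to -0.00). Within the proximal tubule Klotho was higher at the start than at the end: 355 CPM in S1 against 204 CPM in S3 in old D+Q, 321 against 185 CPM in old vehicle, and 323 against 186 CPM in young. The log2 ratio of S3 to S1 was -0.80 in each of the 3 libraries. Endothelial cells had 162 CPM in old D+Q, 175 CPM in old vehicle and 210 CPM in young. The S3 level thus lay above theirs in old D+Q, near it in old vehicle and under it in young. Stromal and mural cells had 114, 169 and 121 CPM in the same order of libraries, and leukocytes 175, 241 and 169 CPM. In old D+Q and young the S3 interval lay above that of stromal cells. The distance of S3 from background thus depends on the class taken for it.

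The distal segments held more Klotho per count than the proximal tubule. Distal convoluted tubule cells, 277 in old D+Q, 241 in old vehicle and 310 in young, had 542 CPM (487 to 602) in old D+Q, 340 CPM (298 to 385) in old vehicle and 754 CPM (695 to 816) in young. The intervals of the 3 libraries did not overlap, with young highest and old vehicle lowest. The log2 ratio was -1.15 (-1.37 to -0.93) for old vehicle against young, 0.67 (0.44 to 0.92) for old D+Q against old vehicle and -0.47 (-0.67 to -0.28) for old D+Q against young. Cells with a Klotho UMI, after thinning each cell to 1000 UMIs, made up 33.6% in old D+Q, 30.7% in old vehicle and 40.6% in young (56.0%, 57.3% and 66.8% unthinned). In endothelial cells the thinned shares were 15.0%, 17.4% and 17.3% (36.1%, 34.8% and 41.2% unthinned). Median depth was 1973, 2176 and 2162 counts per distal convoluted tubule cell and 2500, 2109 and 2498 per endothelial cell. A single barcode held 12.6% of the Klotho counts of this class in old D+Q, 5.76% in old vehicle and 8.82% in young.

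The make-up of the distal convoluted tubule cells differed between libraries as well. Of all genes measured there, 7.23% lay at least 1.5-fold lower and 24.3% at least 1.5-fold higher in old vehicle than in young, with a median log2 ratio of 0.22. For old D+Q against old vehicle 8.32% lay higher and 24.6% lower, with a median of -0.21. Slc34a1 in these cells stood at 1719.6 CPM in old D+Q, 3928 CPM in old vehicle and 2086 CPM in young, and the 12 proximal tubule markers summed to 4892, 7647 and 5364 CPM. The class's own 6 markers summed to 12011, 8407 and 11152 CPM. Set against those markers, Klotho had 45.1 counts per 1000 marker counts in old D+Q, 40.4 in old vehicle and 67.6 in young. The calcium binder Calb1 followed the order of Klotho, with 75.2, 53.2 and 114 per 1000 marker counts, and the sodium-calcium exchanger Slc8a1, both of them genes of the late part of this segment, had 388, 420.1 and 600.4. Among the 6 markers Trpm6 had the order of Klotho as well, with 50.6, 45.4 and 65.5. The other markers did not, such as Tmem52b with 47.7, 32.1 and 42.0 and Pvalb with 1.14, 2.16 and 3.42. With a stricter gate, at 8 times the mean marker level, Klotho stood at 494 CPM in old D+Q, 429 CPM in old vehicle and 784 CPM in young. The ratio of old D+Q to old vehicle was then 0.20, under 1.5-fold, while that of old vehicle to young remained past it at -0.87. The part of these markers in the Klotho difference was not tested.

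Connecting tubule and principal cells, 159 in old D+Q, 76 in old vehicle and 149 in young, had 657 CPM (583 to 738), 709 CPM (604 to 828) and 497 CPM (437 to 563) of Klotho in that order. Old D+Q and old vehicle overlapped, and both intervals lay above that of young. The log2 ratios to young were 0.40 (0.15 to 0.65) for old D+Q and 0.51 (0.22 to 0.80) for old vehicle, neither past 1.5-fold. Set against the class's own markers, the order was another: Klotho had 110 counts per 1000 marker counts in old D+Q, 154 in old vehicle and 153 in young. The order also turned when classes were taken from clusters, with 711, 893 and 845 CPM. Markers of this gate, which joins connecting tubule with principal cells, also differed: Aqp2, the water channel of principal cells, stood at 1721 CPM in old D+Q, 1247 CPM in old vehicle and 530 CPM in young. Thick ascending limb cells had 284, 286 and 287 CPM of Klotho, close to the whole library. Stromal cells and leukocytes had between 114 and 241 CPM, a wider range than the 162 to 210 CPM of endothelial cells. Stromal cells stood under endothelial cells in each library, and old vehicle leukocytes above them. The levels of these classes are read as background, which thus differed between classes.

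**Figure D1:**
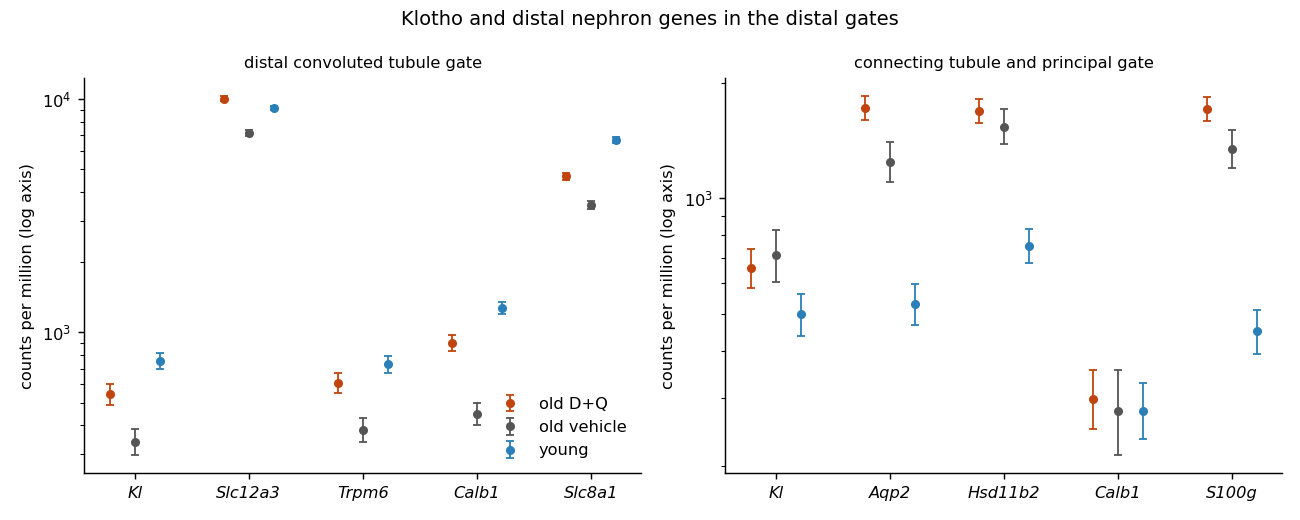
CPM on a log axis for Kl and 4 distal genes in distal convoluted tubule cells (left) and connecting tubule and principal cells (right). Points are libraries (old D+Q, old vehicle, young from left to right) and bars are 95% Poisson intervals. In the left panel Kl stands at 542, 340 and 754 CPM. Trpm6, Calb1 and Slc8a1 have the same order of libraries, and Slc12a3 does not.

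Fgfr1 (ENSMUSG00000031565), an FGF receptor that pairs with Klotho, stood at 52.8 CPM in old D+Q, 55.1 CPM in old vehicle and 54.0 CPM in young over all cells. Its log2 ratios in all 3 comparisons had intervals that included 0. In old D+Q and young it was highest in stromal and mural cells, and in old vehicle in leukocytes. Stromal and mural cells had 116 CPM (89.0 to 148) in old D+Q, 112 CPM (80.3 to 153) in old vehicle and 124 CPM (98.6 to 153) in young. Leukocytes had 85.5, 136 and 90.7 CPM, with intervals that overlapped those of stromal cells. In contrast to Klotho, Fgfr1 was higher in S3 than in S1: 68.6 against 29.0 CPM in old D+Q, 69.1 against 35.1 CPM in old vehicle and 72.3 against 40.1 CPM in young. Endothelial cells had 59.0, 36.8 and 42.1 CPM, above S1 in each library, with overlapping intervals in old vehicle and young. The S3 interval lay above the endothelial one in old vehicle and young and overlapped it in old D+Q. In distal convoluted tubule cells, where Klotho was high, Fgfr1 had 59.4, 67.1 and 53.0 CPM from 39, 48 and 43 counts, with overlapping intervals.

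Slc34a1 (ENSMUSG00000021490), the main sodium-phosphate carrier of the proximal brush border, stood at 5212 CPM in old D+Q, 5363 CPM in old vehicle and 5069 CPM in young proximal tubule cells. The libraries lay within a log2 difference of 0.08 of each other. Along the proximal tubule they differed more. S1 cells had 6066 CPM in old D+Q, 6781 CPM in old vehicle and 6553 CPM in young, while S3 cells had 4108 CPM (4045 to 4172), 3375 CPM (3308 to 3443) and 2330.5 CPM (2274 to 2388). The log2 ratio of S3 to S1 was -0.56 in old D+Q, -1.01 in old vehicle and -1.49 in young. The S3 level stood above the endothelial level of the same library in old D+Q, and under it in old vehicle and young. The part of background RNA in the S3 levels was not tested. In S3 cells the log2 ratio was 0.82 (0.78 to 0.86) for old D+Q against young, 0.53 (0.49 to 0.58) for old vehicle against young and 0.28 (0.25 to 0.32) for old D+Q against old vehicle.

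For old D+Q against young in S3 cells, 2 of 9 measured members lay at least 1.5-fold higher, Slc34a1 and Cyp24a1, where 6.58% of all genes did so, and 0 lay lower (6.81%). In young S3 cells both stood under their endothelial levels. Cyp24a1 did so in S3 cells of each library, with 13.8 CPM in old D+Q, 12.3 CPM in old vehicle and 6.09 CPM in young. Its endothelial levels were 52.5, 56.2 and 40.0 CPM. For old vehicle against young 1 lay higher, Cyp24a1 on 35 and 17 counts (8.87% of genes), and 0 lower (7.34%), and for old D+Q against old vehicle 0 lay higher (4.36%) or lower (5.62%). The S3 set held 1513 old D+Q, 1336 old vehicle and 1039 young cells, or 20.4%, 23.4% and 13.5% of the cells kept. Its S3 markers summed to 7591 CPM in old D+Q, 8274 CPM in old vehicle and 7549 CPM in young, and the S1 markers in it to 1197, 1150 and 996 CPM. Single S3 markers did not share 1 order: Slc7a13, an amino acid carrier, had 3948, 2895 and 3281 CPM, and Slc22a7, an organic anion carrier, had 94.5, 105 and 234 CPM. The part of this mix in the Slc34a1 difference was not tested.

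**Figure D2:**
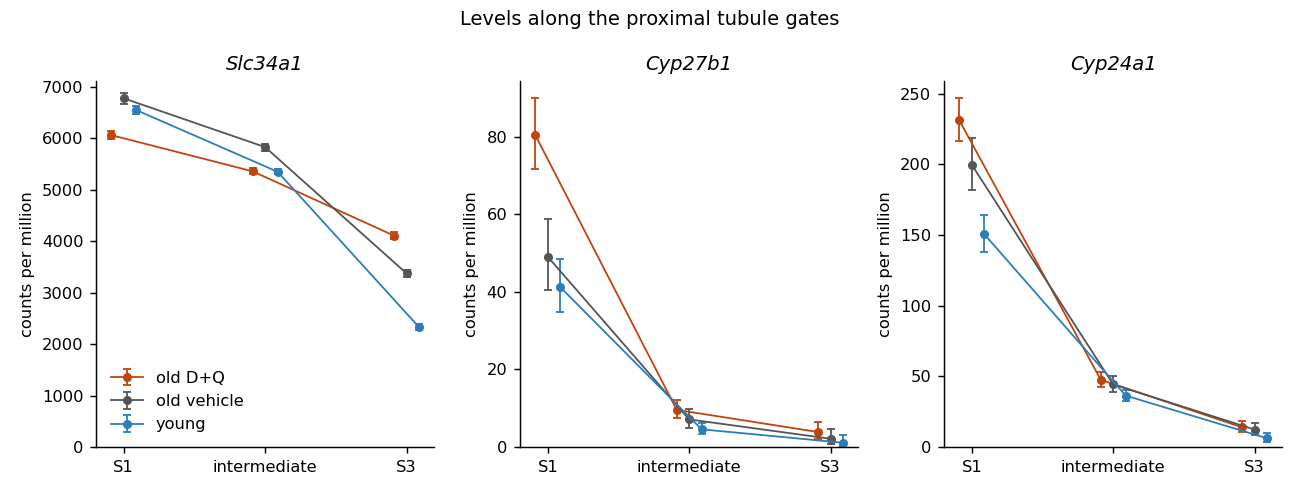
CPM of Slc34a1, Cyp27b1 and Cyp24a1 in S1, intermediate and S3 cells of each library, with 95% Poisson intervals on axes that start at 0. Slc34a1 ends at 4108 CPM in old D+Q, 3375 CPM in old vehicle and 2330.5 CPM in young S3 cells, and both enzymes are concentrated in S1.

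Slc34a3 (ENSMUSG00000006469), the other brush border carrier of this family, was concentrated at the start of the tubule. S1 cells had 72.5 CPM (64.2 to 81.5) in old D+Q, 71.9 CPM (61.5 to 83.6) in old vehicle and 86.3 CPM (76.8 to 96.6) in young, and S3 cells had 10.8, 10.9 and 11.8 CPM. S1 cells, 26.4%, 24.5% and 24.5% of proximal tubule cells, held 62.8%, 60.5% and 60.0% of its proximal tubule counts. The level in S3 did not exceed that of endothelial cells, which had 14.1, 26.0 and 28.7 CPM, and neither did that of the intermediate set in old vehicle (16.2 CPM) and young (18.8 CPM). Over the whole proximal tubule Slc34a3 had 30.6 CPM in old D+Q, 27.7 CPM in old vehicle and 33.0 CPM in young, with a log2 ratio of -0.25 (-0.47 to -0.04) for old vehicle against young, under 1.5-fold.

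Slc20a1 and Slc20a2 are widely expressed phosphate carriers. Slc20a1 (ENSMUSG00000027397) stood at 21.6 CPM in old D+Q, 24.7 CPM in old vehicle and 21.3 CPM in young proximal tubule cells, and all 3 ratio intervals included 0. Slc20a2 (ENSMUSG00000037656) stood at 67.5 CPM in old D+Q, 76.7 CPM in old vehicle and 65.6 CPM in young, with old vehicle highest and log2 ratios of -0.18 (-0.32 to -0.05) against it in old D+Q and 0.23 (0.09 to 0.36) for old vehicle against young. S1 and S3 levels of Slc20a2 lay between 67.2 and 84.9 CPM in the 3 libraries. Thick ascending limb cells had less, with 42.0 CPM (29.9 to 57.5) in old D+Q, 50.3 CPM (31.5 to 76.2) in old vehicle and 28.9 CPM (18.7 to 42.7) in young, and in old D+Q and young these intervals lay under those of the proximal tubule. Slc20a1 in S3 had a log2 ratio to S1 of -0.48 (-0.94 to -0.03) in old D+Q, while in old vehicle and young the interval included 0. Pdzk1 (ENSMUSG00000038298), which holds carriers at the brush border, was the phosphate-linked member with the largest shift in old vehicle proximal tubule: 463 CPM in old D+Q, 529 CPM in old vehicle and 417 CPM in young. Its log2 ratio was 0.35 (0.29 to 0.40) for old vehicle against young, -0.19 (-0.25 to -0.14) for old D+Q against old vehicle and 0.15 (0.10 to 0.20) for old D+Q against young. The same order held in S1, intermediate and S3 cells, always under 1.5-fold. Pdzk1 in endothelial cells was also highest in old vehicle, with 242, 327 and 248 CPM.

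Cyp27b1 (ENSMUSG00000006724), the enzyme that makes active vitamin D, had the largest log2 ratios of the 10 members for old D+Q against old vehicle and against young, over all cells and in the proximal tubule. All cells together had 23.4 CPM (21.3 to 25.7) in old D+Q, 15.1 CPM (13.1 to 17.4) in old vehicle and 11.6 CPM (10.2 to 13.1) in young, from 450, 199 and 250 counts. In such whole-library sums fewer cells of a type and less RNA per cell cannot be told apart, so the gated cells follow. Proximal tubule cells had 26.8 CPM (24.2 to 29.6) in old D+Q, 15.5 CPM (13.2 to 18.1) in old vehicle and 12.3 CPM (10.6 to 14.2) in young, and the interval of old D+Q lay above both others. The log2 ratio was 0.79 (0.52 to 1.07) for old D+Q against old vehicle, 1.12 (0.87 to 1.38) for old D+Q against young and 0.33 (0.01 to 0.64) for old vehicle against young.

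The Cyp27b1 counts came mostly from S1. S1 cells had 80.5 CPM (71.8 to 89.9) in old D+Q, 49.1 CPM (40.5 to 58.9) in old vehicle and 41.3 CPM (34.8 to 48.6) in young, and S3 cells 3.84, 2.11 and 1.07 CPM. In old D+Q, 79.5% of the proximal tubule counts of Cyp27b1 lay in S1 cells, in old vehicle 73.9% and in young 76.9%. Within S1 the log2 ratio was 0.71 (0.40 to 1.03) for old D+Q against old vehicle and 0.96 (0.67 to 1.26) for old D+Q against young. The counts were spread over 268 old D+Q, 121 old vehicle and 137 young proximal tubule cells, with at most 5, 3 and 7 counts in a cell. After thinning, 6.58% of old D+Q, 4.26% of old vehicle and 3.40% of young S1 cells had a Cyp27b1 UMI (12.96%, 7.38% and 7.23% unthinned). Endothelial cells had 7.49 CPM (3.24 to 14.8) in old D+Q, 23.8 CPM (11.9 to 42.6) in old vehicle and 13.3 CPM (8.02 to 20.8) in young, so in old vehicle and young the level of the whole proximal tubule did not stand above them, while S1 did not overlap them in old D+Q and young. Their thinned shares were 0.306%, 3.11% and 0.254% (2.14%, 6.21% and 3.31% unthinned), on 8, 11 and 19 counts in all, so in old vehicle the endothelial share came near that of S1. S1 markers in the S1 cells summed to 11268, 12200.0 and 11024 CPM, with old vehicle highest.

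Cyp24a1 (ENSMUSG00000038567), the enzyme that breaks active vitamin D down, was also read mainly in S1 and stood higher in both old libraries. Proximal tubule cells had 87.2 CPM (82.5 to 92.1) in old D+Q, 71.5 CPM (66.4 to 76.9) in old vehicle and 57.0 CPM (53.3 to 60.9) in young, and no 2 of these intervals overlapped. The log2 ratio was 0.29 (0.15 to 0.42) for old D+Q against old vehicle, 0.61 (0.49 to 0.74) for old D+Q against young and 0.33 (0.18 to 0.47) for old vehicle against young. The ratio to young in old D+Q lay just past 1.5-fold, which is 0.58 on this scale. S1 cells had 231 CPM in old D+Q, 200 CPM in old vehicle and 151 CPM in young, against 13.8, 12.3 and 6.09 CPM in S3. In endothelial cells Cyp24a1 stood at 52.5, 56.2 and 40.0 CPM, above its level in S3.

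Vdr (ENSMUSG00000022479) was spread over the tubule with no such concentration. Proximal tubule cells had 174 CPM in old D+Q, 170 CPM in old vehicle and 195 CPM in young, and the log2 ratio to young was -0.17 (-0.24 to -0.09) in old D+Q and -0.20 (-0.28 to -0.11) in old vehicle. In S1 cells old vehicle stood apart, with 175 CPM (162 to 188) in old D+Q, 132 CPM (118 to 148) in old vehicle and 185 CPM (171 to 200) in young, which gave a log2 ratio of 0.40 (0.20 to 0.60) for old D+Q against old vehicle. After thinning, 14.3% of old D+Q, 12.4% of old vehicle and 16.0% of young S1 cells had a Vdr UMI (31.8%, 21.9% and 30.8% unthinned). The intervals of the thinned shares overlapped between the libraries. In S3 the 3 libraries had 185, 203 and 198 CPM with overlapping intervals. In thick ascending limb cells Vdr was lower in both old libraries, with 84.1 CPM (66.5 to 105), 77.8 CPM (53.9 to 109) and 148 CPM (124 to 176). The log2 ratio to young there was -0.81 (-1.24 to -0.40) in old D+Q and -0.91 (-1.52 to -0.37) in old vehicle, where 5.59% and 9.1% of all genes lay at least 1.5-fold lower. Endothelial cells had 108 CPM of Vdr in old D+Q, 145 CPM in old vehicle and 139 CPM in young, so the thick ascending limb level did not stand clear of background in any library. The S1 level of old vehicle also stood under the endothelial level, while those of old D+Q and young stood above it.

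**Figure D3:**
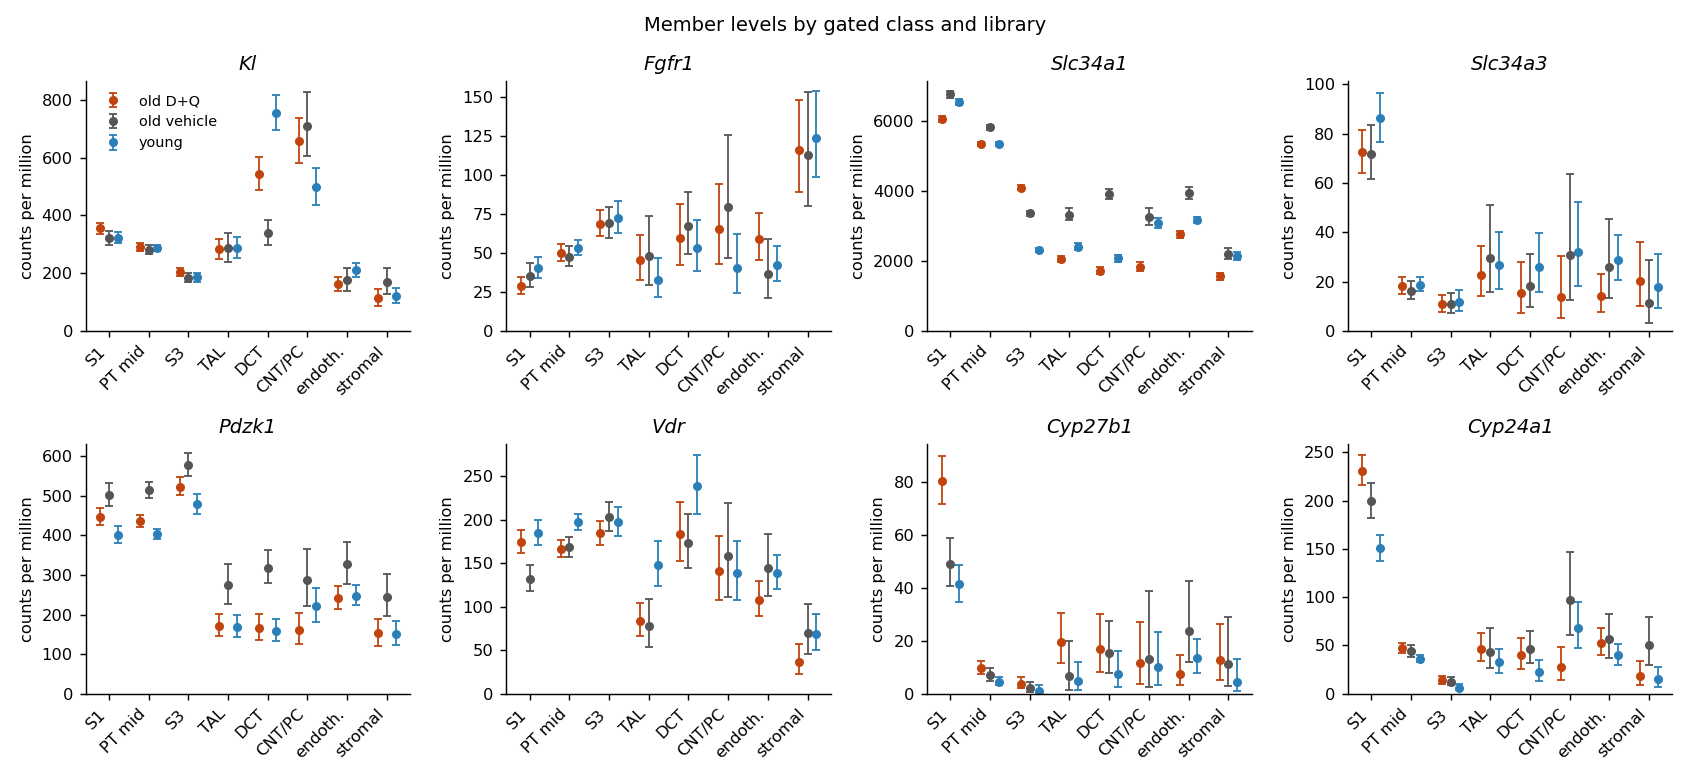
CPM of 8 members in 8 gated classes with 95% Poisson intervals on axes that start at 0. Colours mark the libraries (old D+Q, old vehicle, young from left to right), PT mid is the intermediate set, TAL thick ascending limb, DCT distal convoluted tubule and CNT/PC connecting tubule and principal cells. Cyp27b1, Cyp24a1 and Slc34a3 stand highest in S1, Kl in the distal classes and Fgfr1 in stromal cells.

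**Figure D4:**
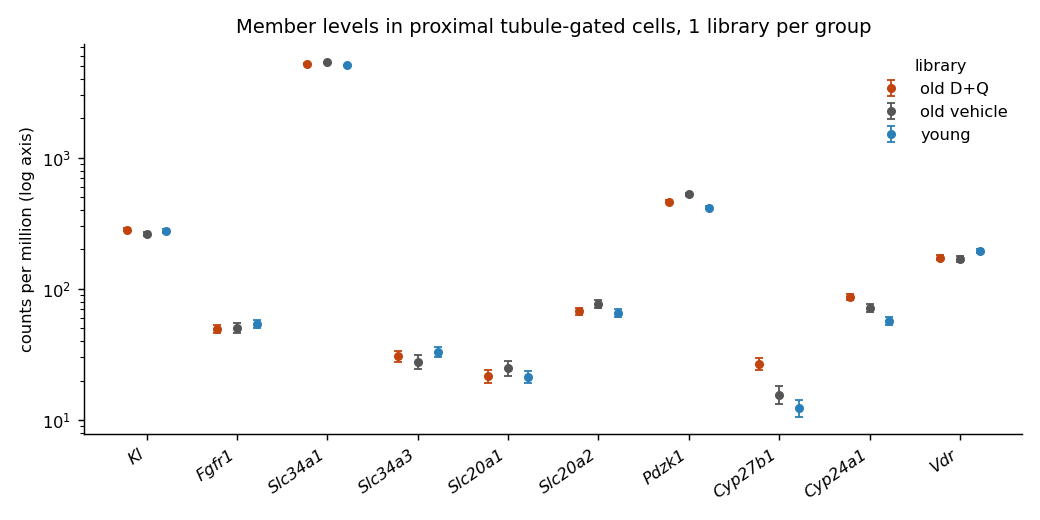
CPM on a log axis for the 10 members in proximal tubule cells, old D+Q, old vehicle and young from left to right within a gene, with 95% Poisson intervals. Cyp27b1 (26.8, 15.5 and 12.3 CPM) and Cyp24a1 (87.2, 71.5 and 57.0 CPM) show the widest gaps.

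Counted together, all 10 members passed the floor for measurement in proximal tubule cells and over all cells. Against old vehicle 1 member, Cyp27b1, lay in old D+Q at least 1.5-fold higher in both, where 1.45% of all genes did so in the proximal tubule and 1.47% over all cells, and 0 lay lower (2.46% and 1.82% of genes). Against young 2 members, Cyp27b1 and Cyp24a1, lay higher in old D+Q (2.38% and 2.01%) and 0 lower (2.61% and 2.68%). In old vehicle against young 0 members lay higher (4.07% and 3.61%) or lower (2.76% and 3.33%). The median log2 ratio of the members in the proximal tubule was -0.00 for old D+Q against old vehicle, 0.04 for old D+Q against young and 0.15 for old vehicle against young, beside -0.08, 0.00 and 0.08 for all genes. The comparisons share libraries, so their likeness is no separate evidence.

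In S1 cells the picture was that of the whole proximal tubule: Cyp27b1 lay at least 1.5-fold higher in old D+Q than in old vehicle (4.24% of genes did so, and 5.38% lay lower with 0 members among them). Cyp27b1 and Cyp24a1 did so against young (4.66%, with 7.09% lower and 0 members), and 0 members passed in old vehicle against young (7.08% higher, 7.22% lower). In distal convoluted tubule cells 9 members were measured. In old D+Q against old vehicle Kl lay higher, where 8.32% of genes did, and Slc34a1, Pdzk1 and Slc20a2 lower, where 24.6% did, the last with an interval that included 0. In old vehicle against young Kl lay lower, where 7.23% of genes did, and Slc34a1, Pdzk1, Slc20a2 and Cyp24a1 higher, where 24.3% did. For old D+Q against young 2 lay higher and 1 lower, all with intervals that included 0 (9.6% and 9.2% of genes).

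In thick ascending limb cells Slc34a1 and Pdzk1 lay lower in old D+Q than in old vehicle, where 14.6% of genes lay lower and 9.51% higher, and Vdr lay lower than in young (11.9% of genes lay higher). For old vehicle against young Pdzk1 and Slc20a2 lay higher, where 22.4% of genes did, the second with an interval that included 0, and Vdr lower, where 9.1% did. In connecting tubule and principal cells Slc34a1, Pdzk1 and Cyp24a1 were lower in old D+Q than in old vehicle (19% of genes lower, 11.1% higher), and Slc34a1, Cyp24a1 and Slc20a2 lower than in young (19.1%), the last with an interval that included 0. Fgfr1 lay higher in old D+Q than in young, with 65.0 against 40.1 CPM and an interval that included 0 (9.91% of genes). Fgfr1 also lay higher in old vehicle than in young (13.2%), again with an interval that included 0, and 0 members lay lower (15.1%). In intercalated cells 4 of 8 measured members lay lower in old D+Q than in old vehicle and 0 higher (15.1% and 12.8% of genes), 3 lower and 1 higher than in young (8.67% and 12.7%), and for old vehicle against young 2 lay higher and 0 lower (17% and 9.34%). Intervals that excluded 0 were left for 2 of the 4, 2 of the 3, 0 of the 1 and 0 of the 2. In endothelial cells the counts were 2 higher and 3 lower for old D+Q against old vehicle (10.4% and 13.1%), 0 higher and 2 lower for old D+Q against young (6.34% and 8.6%), and 2 higher and 1 lower for old vehicle against young (11.1% and 10.7%). Of these, intervals excluded 0 for 0 higher and 2 lower, for 1 lower, and for 1 higher and 0 lower, in the same order of comparisons.

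**Figure D5:**
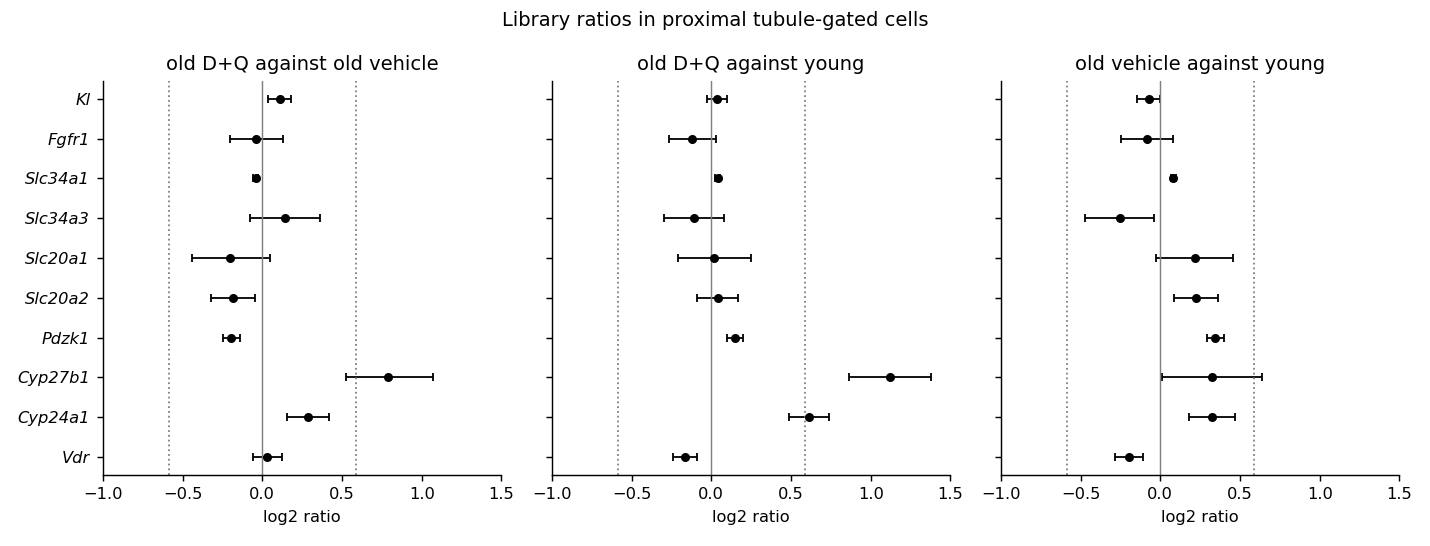
Log2 ratios of the 10 members in proximal tubule cells for old D+Q against old vehicle, old D+Q against young and old vehicle against young, with 95% intervals from counting error. Dotted lines mark 1.5-fold. Cyp27b1 lies past the line at 0.79 and 1.12, Cyp24a1 at 0.61 against young, and all members lie between the lines for old vehicle against young.

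The wider pathway was read in 5 gene lists. Of the FGF23-Klotho list, 10 of 14 genes were measured in the proximal tubule, and for old D+Q against old vehicle 2 lay at least 1.5-fold higher and 0 lower, where 1.45% of all genes lay higher and 2.46% lower. Sgk1, a kinase that acts downstream of FGF23 and of steroid hormones, stood at 113 CPM in old D+Q, 45.1 CPM in old vehicle and 75.4 CPM in young, a log2 ratio of 1.32 (1.17 to 1.47) for old D+Q against old vehicle and -0.74 (-0.90 to -0.58) for old vehicle against young. Spry2, a feedback inhibitor of FGF receptor signalling, had 5.70, 3.75 and 6.17 CPM from 83, 38 and 93 counts. For old vehicle against young these same 2 genes lay lower, where 2.76% of all genes did. For old D+Q against young 0 genes of the list passed in either direction (2.38% of all genes lay higher and 2.61% lower). Egr1, an early response gene of this pathway, was lower in old D+Q over all cells, with 2.45 CPM against 10.2 CPM in old vehicle and 8.15 CPM in young. In that scope 1.82% of all genes lay at least 1.5-fold lower in old D+Q than in old vehicle, and 2.68% lower than in young. Fgfr2, the most counted receptor of the list, had 142, 144 and 165 CPM, while the FGF23 gene itself had 5, 7 and 11 counts and Klb 2, 3 and 19.

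Of the PTH receptor and scaffold list, 8 genes were measured in the proximal tubule and 0 lay past 1.5-fold in any of the 3 comparisons. Of all genes there, 1.45% to 4.07% lay higher and 2.46% to 2.76% lower, depending on the comparison. Pdzk1ip1, a partner of Pdzk1, had 264, 220 and 250 CPM over all cells. Of the phosphate list, 15 of 17 were measured there, with 1 higher for old D+Q against young, where 2.38% of all genes were, and 0 in the other comparisons: Slc34a2, a carrier best known from lung and gut, had 51.5 CPM in old D+Q, 34.8 CPM in old vehicle and 34.2 CPM in young, a log2 ratio of 0.59 (0.42 to 0.75) against young. Slc17a3, an organic anion carrier, had 684, 789 and 597 CPM over all cells. There Galnt3, a glycosyltransferase that protects FGF23 in bone, had 191, 241 and 156 CPM. Its log2 ratio over all cells was 0.63 (0.56 to 0.70) for old vehicle against young. In that scope 3.61% of all genes lay at least 1.5-fold higher.

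Of the vitamin D list, 16 of 18 were measured in the proximal tubule. For old vehicle against young 3 lay higher and 0 lower, at a list median of 0.32 beside 0.08 for all genes, of which 4.07% lay higher and 2.76% lower. These were Dab2, the adaptor of megalin uptake, with 1401 CPM in old D+Q, 1663 CPM in old vehicle and 1078 CPM in young, Gc, the vitamin D binding protein, with 17.7, 18.9 and 12.5 CPM, and the receptor coactivator Ncoa2 with 193, 249 and 166 CPM. The megalin gene Lrp2 had 1066, 1142 and 859 CPM over all cells. For old D+Q against old vehicle 2 lay higher, where 1.45% of all genes did: Cyp27b1 and Rxrb, a partner of Vdr. Rxrb had 11.7 CPM in old D+Q, 7.59 CPM in old vehicle and 8.69 CPM in young. Against young the genes higher in old D+Q were the members Cyp27b1 and Cyp24a1, and 0 lay lower (2.38% and 2.61% of all genes).

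Of the calcium list, 7 of 9 were measured over all cells. Against young 1 of them lay higher in old D+Q, the member Cyp24a1, and 2 lower, Calb1 and Slc8a1 (2.01% and 2.68% of all genes). In old vehicle 1 lay lower than in young, Calb1 (3.33%). For old D+Q against old vehicle 0 passed, where 1.47% of all genes lay higher and 1.82% lower. Calb1 had 69.8 CPM in old D+Q, 66.9 CPM in old vehicle and 108 CPM in young, and Slc8a1 296, 372 and 505 CPM. Among proximal tubule cells Slc8a1 had 61.0, 103 and 176 CPM, a log2 ratio of -1.53 (-1.64 to -1.42) for old D+Q against young. There 2.61% of all genes lay at least 1.5-fold lower. Distal convoluted tubule cells had 4662, 3532 and 6695 CPM of Slc8a1, and the part of background RNA in its proximal tubule level was not tested. In connecting tubule and principal cells S100g, a calcium binder under vitamin D control, stood at 1714 CPM in old D+Q, 1348 CPM in old vehicle and 449 CPM in young. Its log2 ratio was 1.93 (1.71 to 2.15) for old D+Q against young, where 9.91% of all genes lay at least 1.5-fold higher, and 1.58 (1.33 to 1.84) for old vehicle against young, where 13.2% did. The markers of this gate differed in the same direction, and per 1000 marker counts S100g had 288 counts in old D+Q, 292 in old vehicle and 138 in young, so on this scale the old libraries lay close together and the gap to young was smaller. The part of the markers in the S100g difference was not tested.

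The genes whose levels over 30 points (10 classes in 3 libraries) most resembled a member's were picked by Pearson's r of log2(CPM + 10), and the points share libraries and background RNA. For Slc34a1 these were Nr1h4 (r = 0.96), Slc13a1 (0.95) and Tnfaip8 (0.93), and for Pdzk1 they were Hnf4a (0.97), Lactb2 (0.96) and Abcc2 (0.96). For Cyp24a1 they were Clec2h (0.91), Nox4 (0.90) and Epb41l3 (0.89), for Slc34a3 Prodh2 (0.85), Clec2h (0.84) and Nepn (0.83), and for Cyp27b1 Rnf212b (0.85) and Gpat3 (0.83). For Kl they were Klhdc7a (0.84), Sox6 (0.78) and Klk1 (0.78). For Vdr they were Ppil6 (0.82), Timm9 (0.80) and Hpn (0.80), and for Fgfr1 Chmp1a (0.76), Fn1 (0.75) and Plekha2 (0.74). Slc20a2 most resembled Mtus1 (0.83), Mast2 (0.83) and Pdzd2 (0.82), and Slc20a1 Slc30a5 (0.79), Exoc6 (0.72) and Vamp1 (0.72).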

How the data were processed

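Kidneys were dissociated with collagenase II, and MobiCube 3′ libraries were sequenced on an Illumina instrument, per the labels' protocols. The deposited values are raw UMI counts, which the authors did not normalise. No aligner or barcode filter is named in the labels, and the submitters' processing notes list GRCm39 and mm10 without roles. No deposited barcode held fewer than 1451 counts in old D+Q, 1416 in old vehicle and 1561 in young.

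Barcodes above 50% mitochondrial counts were dropped (149 old D+Q, 82 old vehicle, 385 young). The automatic threshold of Scrublet called 2, 0 and 1 barcodes, under the 0.5% taken as working, so those with the highest scores, at an assumed rate of 0.8% per 1000 barcodes, were dropped (472, 236 and 536). A cell joined the class of its highest marker level if it had UMIs of at least 2 markers, 4 marker UMIs and a marker level of at least 4 times the mean of the libraries at its depth. Cells in no class with at least 3 proximal tubule markers were called proximal tubule. S1 or S3 needed 1.5 times the mean level of its markers and over 2 times the other's. The marker lists were set first. The 4 UMIs and the ratio of 4 were added after values had been seen, members' included, because background RNA filled the first gate, and the segment limits were set with the files in hand. Cell names are rebuilt from markers and may differ from the study's own. The members and lists were chosen with earlier results of these data known.

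Counts were summed per class and library and divided by the class total. Comparisons used the 12 sets (all cells, classes and segments) with 50 cells in every library, and genes with 30 counts over the libraries and 5 CPM on average. Log2 ratios had 0.5 counts added. Shares of cells were read after thinning to 1000 UMIs, which left out 0 cells. Symbols shared by 52 genes of the lists include no member. Named were all members, list genes past 1.5-fold with an interval that excludes 0, the 2 most counted of each list, and the 3 genes most like each member, of which 1 is not reported here. Gate markers, FGF23, Klb and the calcium genes beside Kl were chosen after their values were seen. Alternatives covered scaling, filters, gates and 30 clusters made without the members. Tools were Python 3.11.15, scanpy 1.11.5, numpy 2.4.6, pandas 2.3.3, scipy 1.17.1, matplotlib 3.10.9, R 4.3.3 and edgeR 4.0.16 (TMM factors). The log2 ratios and their intervals were tested on Poisson counts drawn from the proximal tubule sums. The gates and the summing of cells were not tested in this way.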

Additional observations from a re-analysis of the deposited data

Results flagged for a closer look

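Several members stood past 1.5-fold in opposite directions in different classes of the same comparison. These differences between classes were not tested. Cyp27b1 in old D+Q against old vehicle had log2 ratios of 0.79 in proximal tubule and 0.71 in S1 cells and -1.64 in endothelial cells, the last on 8 and 11 counts. Cyp24a1 in old D+Q against young had 0.61 in proximal tubule, 0.62 in S1 and 1.16 in S3 cells (54 and 17 counts). In connecting tubule and principal cells it had -1.25 (12 counts in old D+Q and 34 in young). In intercalated cells it had -1.31 (5 and 27 counts). In old D+Q the S3, connecting tubule and principal, and intercalated levels were 13.8, 27.9 and 16.5 CPM, under the endothelial 52.5 CPM. In young the S3 level of 6.09 CPM lay under the endothelial 40.0 CPM, while the others did not. Slc34a1 in old D+Q against young had 0.82 in S3 cells and -0.75 in connecting tubule and principal cells, which should lack it. Kl in old D+Q against old vehicle had 0.67 in distal convoluted tubule cells and -0.81 in intercalated cells (38 and 67 counts). In intercalated cells of old D+Q Kl stood at 126 CPM (89.0 to 173), under the 162 CPM of endothelial cells of that library.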

How the results depend on the processing

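No paired analysis was possible because each group had 1 library, and for the same reason no library could be left out. For old D+Q against young the count of members past 1.5-fold was 2 and became 1, Cyp27b1, over all cells with a mitochondrial limit of 25% (Cyp24a1 then stood at 0.58) and with a mean over cells in place of a sum (0.52), and in the proximal tubule it became 1 with the mean over cells (0.54). The counts for the other comparisons over all cells and in the proximal tubule kept their value under the alternatives run. Of 918 recomputed log2 ratios 838 stayed within the counting interval, 80 moved beyond it and 0 of those past 1.5-fold changed sign. In the proximal tubule Cyp27b1 ranged from 0.76 to 0.88 for old D+Q against old vehicle and from 1.01 to 1.22 for old D+Q against young. Slc34a1 in S3 ranged from 0.69 to 0.86 for old D+Q against young. Kl in distal convoluted tubule ranged from -1.39 to -0.81 for old vehicle against young and from 0.20 to 0.89 for old D+Q against old vehicle, and was under 1.5-fold with the stricter gate (0.20), clusters (0.35), the mean over cells (0.37), all deposited barcodes (0.51), doublets kept (0.55) and the 25% mitochondrial limit (0.58). In connecting tubule and principal cells it ranged from -0.25 to 0.54 for old D+Q against young, below 0 with clusters, with no mitochondrial limit (-0.09) and with all barcodes (-0.08). The cause was not tested. A gate at 8 times the marker level and the use of all deposited barcodes were chosen after seeing the data. Depth limits Slc34a3, Slc20a1 and Cyp27b1 outside the proximal tubule, where 43 counts was the most in a class of a library.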
